A study of Mus musculus with 4 samples.

Results

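The genes described here are 41 transcripts of the NRF2, glutathione and thioredoxin antioxidant systems of mouse airway epithelium. They were taken by symbol from a deposited table of 25124 genes, and all 41 were listed and lay above the floor for testing, a mean of 25.8 normalised reads, which equals 1 CPM (a count scaled to library size). The cells were sorted by fluorescence from the lungs of wild-type C57BL/6 mice that had been sensitised with house dust mite (HDM), an allergen source. One group of 2 libraries came from mice given HDM and a drug against SCD1, or stearoyl-CoA desaturase 1, which puts a double bond into saturated fatty acids, and the other 2 libraries came from mice given HDM and the vehicle DMSO. Both groups had thus received HDM, and mice without it were not analysed here. The labels give neither the name, dose or timing of the inhibitor, nor the age or sex of the mice, nor the sorting gate, nor whether a library is 1 mouse or a pool.

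Values are normalised reads, that is, each library's reads scaled by its own size factor. Depth ran from 24591122 to 27013663 reads per library. Of the epithelial markers, Epcam had 6275 and 6732 normalised reads in the inhibitor libraries, against 5026 and 6466 in the DMSO libraries. The club cell gene Scgb1a1 and ciliated cell genes were abundant. The alveolar type 2 gene Sftpc, which marks cells outside the conducting airway, was abundant too, at 115828 and 100831 normalised reads in the inhibitor libraries against 149317 and 191501 in the DMSO libraries. Leukocyte markers were low, with sums of 805 to 1137 normalised reads per inhibitor library and 446 to 1469 per DMSO library over 12 genes. The sum of 6 neutrophil markers was 143 and 132 normalised reads in the inhibitor libraries, against 135 and 114 in the DMSO libraries. Of these S100a8, S100a9 and Ly6g were at 0 in all 4 libraries, while Retnlg averaged 111. DMSO replicate 2 stood apart in endothelial markers. Their sum was 4728 and 6422 normalised reads in the inhibitor libraries, against 4464 and 13236 in the DMSO libraries. DMSO replicate 1 stood apart in fibroblast and mural markers, whose sum was 3874 and 3726 normalised reads in the inhibitor libraries, against 1568 and 3759 in the DMSO libraries. In these bulk samples fewer cells of a type and less RNA per cell cannot be told apart.

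Epithelial cells keep peroxides and reactive electrophiles low with 2 thiol systems. Glutathione, made by glutamate-cysteine ligase and glutathione synthetase, feeds the glutathione peroxidases and the glutathione S-transferases. Thioredoxin and its reductase recharge most, though not all, of the peroxiredoxins. The transcription factor NRF2, encoded by Nfe2l2, is held down by KEAP1, which hands it to a cullin 3 ubiquitin ligase. When the cysteines of KEAP1 are modified, NRF2 accumulates and binds antioxidant response elements in front of many of these genes. In the lung, club cells are rich in transferases and other enzymes that handle inhaled chemicals.

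The comparison asked how transcripts of these systems differed in airway epithelium between mice given the inhibitor and mice given vehicle, all after HDM. Of the 41 genes 1 passed the limma test (adjusted p under 0.05), the glutathione S-transferase Gsto1, which was lower. That is 2.44%, against 0.427% of all genes tested that passed as lower and 1.79% in either direction. None of the 41 passed as higher. Gsto1 was not called by edgeR or without a floor. A gene that fell or rose is, below, one that passed in that direction. Gsto1 had 5845 and 8196 normalised reads in the inhibitor libraries, against 11038 and 12055 in the DMSO libraries, 1.66-fold lower with the inhibitor in the fit. Nfe2l2 averaged 4769 ± 480.3 normalised reads with the inhibitor and 4773 ± 636 with DMSO (SD, n = 2 each). Gclc, which sets the rate of glutathione synthesis, averaged 13197 ± 100.4 with the inhibitor and 11424 ± 1365 with DMSO, and did not pass. The smallest p after that of Gsto1, both short of the threshold once adjusted, were those of Mgst1, a membrane-bound transferase, and Prdx6, a peroxiredoxin.

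In the limma test over all 13810 genes above the floor, 1.79% of genes passed at an adjusted p under 0.05 in either direction and 0.427% passed as lower. Of the 41 antioxidant genes 1 passed, as lower. At an unadjusted p under 0.05 there were 8 antioxidant genes (19.5%), all lower, against 14.1% of all genes tested. Inhibitor and DMSO values did not overlap in 13 antioxidant genes that were lower with the inhibitor (31.7%, against 22.2% of all genes) and in 4 that were higher (9.76%, against 22.7%). Log2 fold changes were negative in 31 of the 41 and positive in 10, with a median of -0.16 against 0.0056 over all genes tested.

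This lean of sign and median towards lower values rested on DMSO replicate 2. That library held the highest value of the 4 in 25 of the 41 genes, against 2 and 5 for the inhibitor libraries and 9 for DMSO replicate 1. Without it the median was -0.021, with 23 genes negative and 18 positive. Without DMSO replicate 1 it was -0.20. The summed level of the 41 genes was lower than in both DMSO libraries. It was 149889 and 148544 normalised reads in the inhibitor libraries, against 161012 and 171257 in the DMSO libraries. The median difference of replicate 1 minus replicate 2 over the 41 genes was -0.015 (log2) in the inhibitor pair and -0.16 in the DMSO pair. The endothelial markers were high in the same library, and their part in this was not tested. Without DMSO replicate 1, 6 of the 41 genes passed, where 5.76% of all genes did. Without DMSO replicate 2, 3 passed, where 2.57% of all genes did. None of the 41 passed without SCD1 inhibitor replicate 1, where 0.0362% of all genes did, or without SCD1 inhibitor replicate 2, where 0.109% did, so that these fits called few genes of any kind. With DESeq2 on the recovered reads 3 passed, where 3.99% of all genes tested did. The 4820 genes to which DESeq2 gave no adjusted p count there as not passing, antioxidant genes among them.

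**Figure D1:**
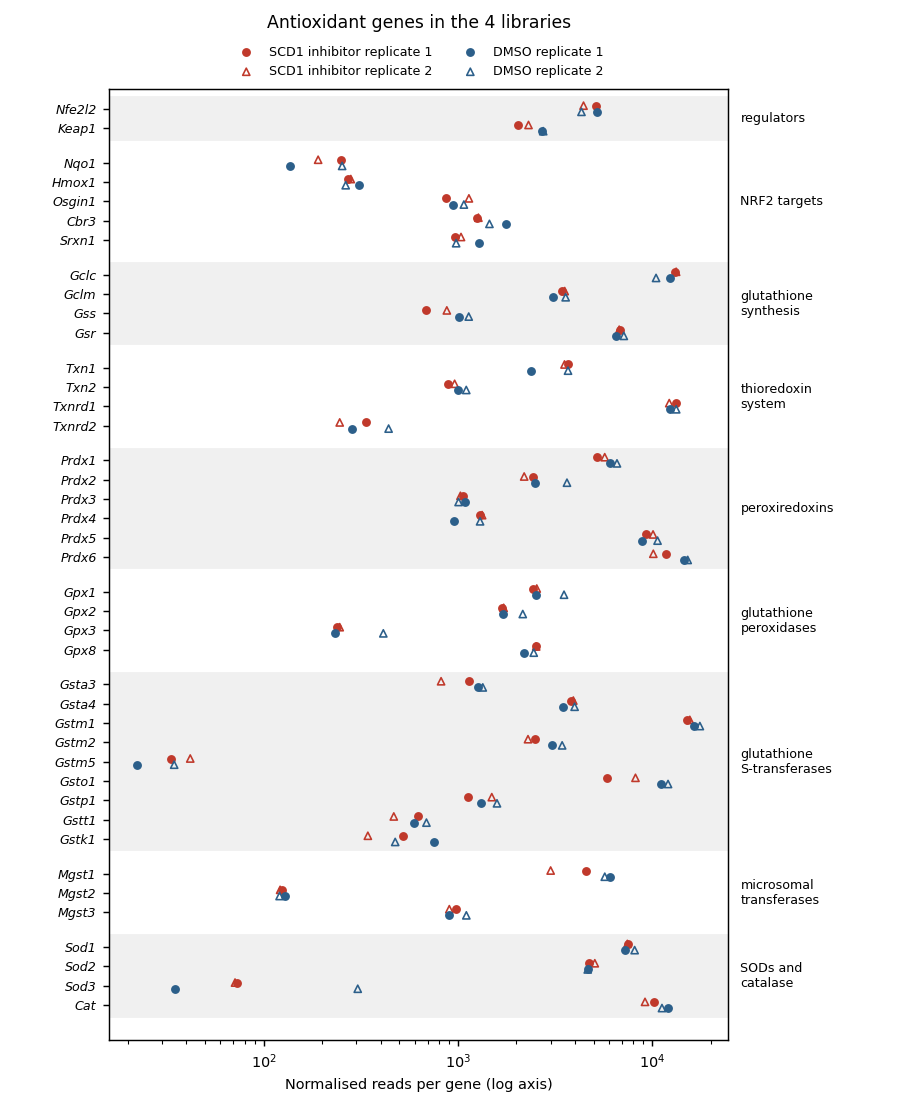
Normalised reads (horizontal log axis) of the 41 antioxidant genes, grouped by role, in the SCD1 inhibitor libraries (red, upper row of each gene) and the DMSO libraries (blue, lower row), with replicate 1 as filled circles and replicate 2 as open triangles. For most genes the red and blue symbols interleave. Both red symbols lie left of both blue ones in 13 genes, Gsto1, Mgst1 and Prdx6 among them (31.7%, against 22.2% of all genes). Both lie right in 4 (9.76%, against 22.7%).

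**Figure D2:**
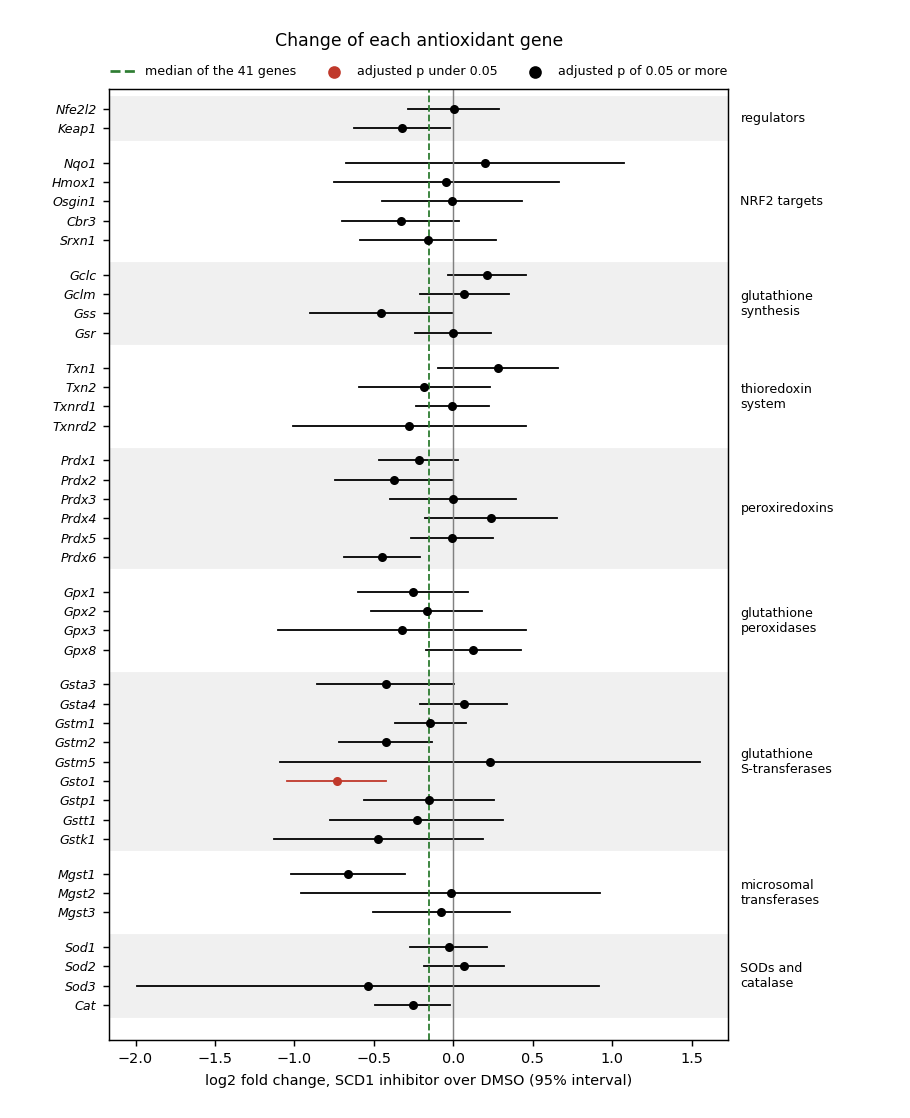
Log2 fold change of each gene, SCD1 inhibitor over DMSO (points), with the 95% interval of the limma fit before correction for many genes (lines), and the median of the 41 genes (dashed, -0.16). Gsto1, in red, is the gene whose adjusted p was under 0.05, and most other intervals include 0.

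Levels can be compared between genes only per length, as normalised reads per kilobase of the longest coding transcript. On that scale, and over the 4 libraries together, Gstm1 was the most abundant of the 41, at 11892 with the inhibitor and 13162 with DMSO. The cytosolic superoxide dismutase Sod1 was next, at 11688 with the inhibitor and 11955 with DMSO, and Gsto1 was the third, at 5939.5 with the inhibitor and 9769 with DMSO. Gstm1 and Sod1 did not differ beyond their spread, and in SCD1 inhibitor replicate 1 Sod1 was the higher of the pair. Gsto1 held the third place over all libraries and with DMSO, but not with the inhibitor, where Prdx5 was above it. Prdx5 had 7657 per kilobase with the inhibitor and 7721 with DMSO. The lowest were Sod3, the extracellular superoxide dismutase, at 19.3 per kilobase with the inhibitor and 45.5 with DMSO, and Gstm5, at 39.9 with the inhibitor and 30.2 with DMSO.

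**Figure D3:**
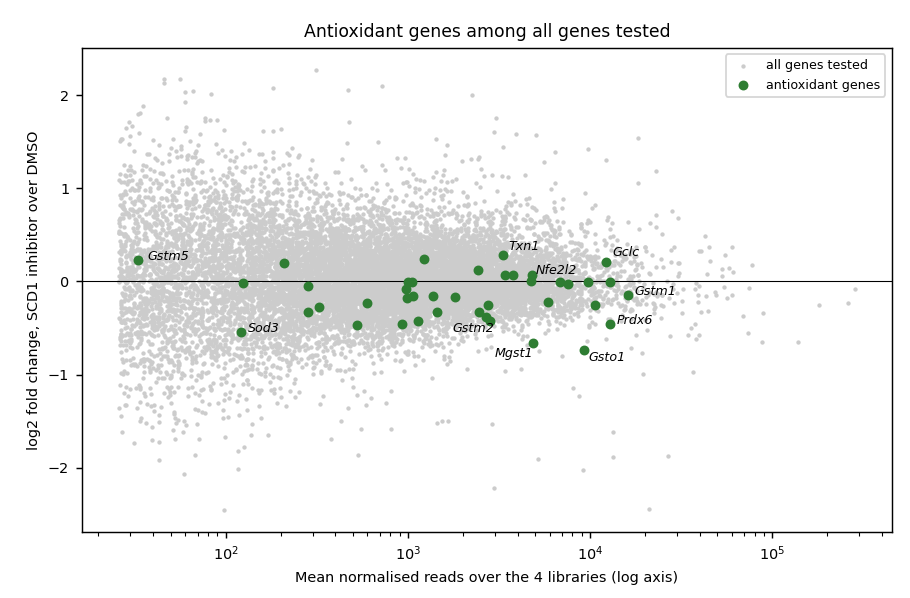
Log2 fold change, SCD1 inhibitor over DMSO, against the mean normalised reads over the 4 libraries (log axis) for all genes tested (grey) and the 41 antioxidant genes (green, some named). Gsto1 (-0.73), Mgst1 (-0.66) and Prdx6 (-0.45) lie below the line at 0, and Nfe2l2 (0.0015) lies on it.

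Among the regulators, the NRF2 transcript had nearly equal means in the groups. Nfe2l2 had 5108 and 4429 normalised reads in the inhibitor libraries, against 5222 and 4323 in the DMSO libraries, so that the DMSO values enclosed those with the inhibitor. Its fold change, inhibitor over DMSO, had a 95% interval of 0.821 to 1.22 before correction for many genes. Keap1, the repressor, was lower in both inhibitor libraries than in either DMSO library. Keap1 had 2043 and 2308 normalised reads in the inhibitor libraries, against 2699 and 2747 in the DMSO libraries, a log2 fold change of -0.32 ± 0.14 (SE, n = 2 each, limma adjusted p = 0.315) that did not pass, and its exons overlap those of Gm16754 on the other strand. Of 13 other genes listed around NRF2, as its relatives, partners or regulators, none passed, with 5 positive and 8 negative (median -0.034). The closest was Cul3, the scaffold of the ligase that marks NRF2 for destruction. Cul3 had 4581 and 4679.7 normalised reads in the inhibitor libraries, against 3533 and 3139.6 in the DMSO libraries, a log2 fold change of 0.47 ± 0.12 (SE, n = 2 each, limma adjusted p = 0.0809). Cul3 passed with DESeq2 (adjusted p = 0.0132) and without DMSO replicate 1 (0.56, adjusted p = 0.0118), with adjusted p from 0.0118 to 0.770 over the alternatives run. Sqstm1, the autophagy receptor that binds KEAP1, had -0.25 (adjusted p = 0.309).

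The classic NRF2 targets gave 1 positive and 4 negative values, and none passed. Nqo1, a quinone reductase widely read as a sign of NRF2 activity, was low in every library. Nqo1 had 250.3 and 191 normalised reads in the inhibitor libraries, against 136 and 254 in the DMSO libraries, and DMSO replicate 1 held the lowest value and DMSO replicate 2 the highest. Its log2 fold change of 0.20 ± 0.41 (SE, n = 2 each, limma adjusted p = 0.879) became -0.19 without DMSO replicate 1. Hmox1, the inducible haem oxygenase, overlapped between the groups as well. Hmox1 had 272 and 281 normalised reads in the inhibitor libraries, against 309 and 265 in the DMSO libraries, a log2 fold change of -0.044 ± 0.33 (SE, n = 2 each, limma adjusted p = 0.968). The interval of its fold change ran from 0.593 to 1.59. Cbr3, a carbonyl reductase, was lower in both inhibitor libraries. Cbr3 had 1257 and 1275 normalised reads in the inhibitor libraries, against 1761 and 1453 in the DMSO libraries, a log2 fold change of -0.33 ± 0.17 (SE, n = 2 each, limma adjusted p = 0.412). Srxn1, the sulfiredoxin that repairs overoxidised peroxiredoxins, was higher in DMSO replicate 1 than elsewhere, and its groups overlapped. Srxn1 had 968 and 1037 normalised reads in the inhibitor libraries, against 1289 and 979 in the DMSO libraries, a log2 fold change of -0.16 ± 0.20 (SE, n = 2 each, limma adjusted p = 0.778). Osgin1, an oxidative stress-induced growth inhibitor, had -0.011 (adjusted p = 0.989). Of 16 further genes listed as NRF2 targets, 5 were positive, 11 negative and none passed (median -0.12). The closest was Ephx1, the microsomal epoxide hydrolase, lower in both inhibitor libraries. Ephx1 had 6004 and 5908 normalised reads in the inhibitor libraries, against 7735 and 7732 in the DMSO libraries, a log2 fold change of -0.38 ± 0.11 (SE, n = 2 each, limma adjusted p = 0.119), and adjusted p from 0.0132 to 0.788 over the alternatives run. Abcb6, a porphyrin transporter, had -0.46 (adjusted p = 0.182).

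Promoter sequence bears on the name of this gene set, so the windows from 250 bases before to 50 bases after the RefSeq start (GRCm38.p6, which is mm10) were searched on both strands for TGACNNNGC, the core of the antioxidant response element. A window was at hand for 35 of the 41 genes, all but Hmox1, Gclc, Gsr, Prdx6, Gsta4 and Sod3. The letters were present in 9 of those 35 (25.7%), and in 14.0% of 27025 genes with such a window. A match of letters is a description and not a bound site, and distal elements lie outside these windows. Shown first are stretches of up to 40 bases on either side of the match, on the strand of the gene and in front of the start, with the match in capitals, for a transferase, a peroxiredoxin, the glutathione ligase subunit, the thioredoxin reductase, the factor itself and a dismutase. They are at chr6:138140431-138140519 (Mgst1, plus), chr4:116685426-116685514 (Prdx1, plus), chr3:122245383-122245471 (Gclm, plus), chr10:82859074-82859162 (Txnrd1, plus, at 1 of its starts), chr2:75704855-75704913 (Nfe2l2, minus) and chr16:90220666-90220754 (Sod1, plus).
Mgst1: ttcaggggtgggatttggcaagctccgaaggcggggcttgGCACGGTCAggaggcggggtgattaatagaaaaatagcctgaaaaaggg
Prdx1: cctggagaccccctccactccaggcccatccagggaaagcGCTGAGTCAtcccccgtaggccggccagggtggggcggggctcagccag
Gclm: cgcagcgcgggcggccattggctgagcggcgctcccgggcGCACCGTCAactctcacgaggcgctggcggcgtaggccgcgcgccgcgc
Txnrd1: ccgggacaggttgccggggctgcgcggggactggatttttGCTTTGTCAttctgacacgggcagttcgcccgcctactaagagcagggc
Nfe2l2: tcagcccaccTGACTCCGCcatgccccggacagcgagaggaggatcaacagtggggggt
Sod1: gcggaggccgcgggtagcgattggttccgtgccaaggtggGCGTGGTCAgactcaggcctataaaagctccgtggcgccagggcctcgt

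In Nfe2l2 the match reads along the gene and in the other 5 it lies on the opposite strand. The match of Prdx1 also overlaps the AP-1 core TGANTCA, and none of the other 5 does. The remaining matches were in Gsta3, Gstm5 and Srxn1. Gsto1, the gene that fell, had no match in its window, whose 250 bases in front of the start (chr19:47854723-47854972, plus strand) are given for that reason.
Gsto1: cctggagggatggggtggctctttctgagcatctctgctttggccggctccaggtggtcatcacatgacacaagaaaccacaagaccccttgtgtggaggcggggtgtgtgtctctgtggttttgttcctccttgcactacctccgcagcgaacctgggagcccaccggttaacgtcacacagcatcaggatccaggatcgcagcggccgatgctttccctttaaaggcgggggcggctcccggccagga

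The genes with a match lay on both sides of 0. Their log2 fold changes ran from -0.66 for Mgst1 and -0.43 for Gsta3 through -0.22 for Prdx1, -0.16 for Srxn1, -0.030 for Sod1, -0.008 for Txnrd1 and 0.0015 for Nfe2l2 to 0.069 for Gclm and 0.23 for Gstm5.

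Of the glutathione synthesis and recycling enzymes none passed. Gclc, the catalytic subunit of glutamate-cysteine ligase, was higher in both inhibitor libraries than in either DMSO library. Gclc had 13126 and 13268 normalised reads in the inhibitor libraries, against 12389 and 10458 in the DMSO libraries, a log2 fold change of 0.21 ± 0.11 (SE, n = 2 each, limma adjusted p = 0.433). Leaving out DMSO replicate 2 brought it to 0.091, and leaving out DMSO replicate 1 to 0.33. Its partner Gclm, the modifier subunit, overlapped between groups (0.069, interval of the fold 0.863 to 1.28). Gss, the synthetase of the second step, was lower in both inhibitor libraries. Gss had 686 and 877 normalised reads in the inhibitor libraries, against 1017 and 1137 in the DMSO libraries, a log2 fold change of -0.46 ± 0.21 (SE, n = 2 each, limma adjusted p = 0.342), and its exons overlap those of Acss2, Gssos1 and Gssos2 on the other strand. Gsr, which returns oxidised glutathione to its reduced form, overlapped between the groups. Gsr had 6843 and 6759.9 normalised reads in the inhibitor libraries, against 6509.9 and 7139 in the DMSO libraries, a log2 fold change of -0.0034 ± 0.11 (SE, n = 2 each, limma adjusted p = 0.993) and a fold interval of 0.844 to 1.18.

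Genes around the glutathione cycle had more negative than positive values. Of 13 genes of cystine uptake and glutathione turnover, 10 were negative (median -0.24) and none passed. Anpep, an ectopeptidase that finishes the breakdown of extracellular glutathione, came closest. Anpep had 1511 and 1070.0 normalised reads in the inhibitor libraries, against 1997 and 2312 in the DMSO libraries, a log2 fold change of -0.74 ± 0.18 (SE, n = 2 each, limma adjusted p = 0.0616). Anpep passed with DESeq2 (0.0182) and without DMSO replicate 1 (-0.85, adjusted p = 0.0147), with adjusted p from 0.00133 to 0.793 over the alternatives run. Abcc1, a pump for glutathione conjugates, had -0.47 (adjusted p = 0.132). Of 9 genes that supply the NADPH both thiol systems consume, 8 were negative (median -0.25) and none passed. Pgd encodes a dehydrogenase of the pentose phosphate pathway. Pgd had 3836 and 3771 normalised reads in the inhibitor libraries, against 5361 and 4879.9 in the DMSO libraries, a log2 fold change of -0.42 ± 0.12 (SE, n = 2 each, limma adjusted p = 0.108), and adjusted p from 0.0197 to 0.776 over the alternatives run. Idh1, the cytosolic isocitrate dehydrogenase, had -0.57 (adjusted p = 0.161).

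In the thioredoxin system no member passed. Txn1, cytosolic thioredoxin, was alike in 3 libraries and lower in DMSO replicate 1. Txn1 had 3684 and 3535 normalised reads in the inhibitor libraries, against 2379 and 3686 in the DMSO libraries, a log2 fold change of 0.28 ± 0.17 (SE, n = 2 each, limma adjusted p = 0.513). Txn1 turned on that library: its value was -0.030 without DMSO replicate 1 and 0.60 (adjusted p = 0.0268, adjusted p from 0.0268 to 0.930 over the alternatives run) without DMSO replicate 2. Txnrd1, the cytosolic reductase and a frequent NRF2 target, overlapped between the groups. Txnrd1 had 13312 and 12226 normalised reads in the inhibitor libraries, against 12394 and 13279.8 in the DMSO libraries, a log2 fold change of -0.008 ± 0.11 (SE, n = 2 each, limma adjusted p = 0.984), with a fold interval of 0.848 to 1.17. The mitochondrial thioredoxin Txn2 was lower in both inhibitor libraries. Txn2 had 888 and 962 normalised reads in the inhibitor libraries, against 1003 and 1104 in the DMSO libraries, a log2 fold change of -0.18 ± 0.19 (SE, n = 2 each, limma adjusted p = 0.730). Its reductase Txnrd2 had -0.28 (adjusted p = 0.777). Of 22 other thioredoxin, glutaredoxin and selenoprotein genes, 11 were positive and 11 negative, and none passed. The closest were Selenop, which carries selenium out of cells (-0.42, adjusted p = 0.169), and Selenot, an oxidoreductase of the endoplasmic reticulum (0.39, adjusted p = 0.200). Selenot passed without DMSO replicate 1 (0.55, adjusted p = 0.0131), with adjusted p from 0.0131 to 0.848 over the alternatives run.

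The peroxiredoxins, which destroy peroxides with a reactive cysteine, gave 5 negative values and 1 positive, and none passed. Prdx6, which also has phospholipase activity and takes part in surfactant lipid turnover, was lower in both inhibitor libraries. Prdx6 had 11707 and 10124 normalised reads in the inhibitor libraries, against 14604 and 15217 in the DMSO libraries, 1.37-fold lower, a log2 fold change of -0.45 ± 0.11 (SE, n = 2 each, limma adjusted p = 0.0594). Prdx6 passed with DESeq2 (adjusted p = 0.00158) and without DMSO replicate 1 (-0.48, adjusted p = 0.0178), with adjusted p from 0.00158 to 0.773 over the alternatives run. It was -0.35 without SCD1 inhibitor replicate 2. Prdx2, a cytosolic peroxiredoxin, was highest in DMSO replicate 2, and its exons overlap those of Rnaseh2a, while 8.96% of its 50-base stretches also occur in Tdpx-ps1 or Prdx2-rs3. Prdx2 had 2439 and 2192 normalised reads in the inhibitor libraries, against 2489 and 3640.1 in the DMSO libraries, a log2 fold change of -0.38 ± 0.17 (SE, n = 2 each, limma adjusted p = 0.344) that was -0.65 (adjusted p = 0.0105) without DMSO replicate 1 and -0.11 without DMSO replicate 2 (adjusted p from 0.0105 to 0.918 over the alternatives run). Prdx1 was lower in both inhibitor libraries by less (-0.22, adjusted p = 0.432), and 10.9% of the 50-base stretches of its transcript also occur in 3 other genes. The mitochondrial Prdx3 (-0.0018) and Prdx5, found in mitochondria and peroxisomes (-0.0073, with exons that overlap Trmt112), overlapped between the groups. Prdx4 of the endoplasmic reticulum was higher in both inhibitor libraries (0.24, adjusted p = 0.635), but 0.019 without DMSO replicate 1.

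The glutathione peroxidases, which spend glutathione on peroxides, had no member that passed. Gpx1 had 2433 and 2545 normalised reads in the inhibitor libraries, against 2515 and 3515 in the DMSO libraries, and its log2 fold change of -0.25 ± 0.16 (SE, n = 2 each, limma adjusted p = 0.527) rested on DMSO replicate 2: it was -0.015 without that library and -0.49 (adjusted p = 0.0446, adjusted p from 0.0446 to 0.972 over the alternatives run) without DMSO replicate 1. The secreted Gpx3 had the same shape: Gpx3 had 239 and 247 normalised reads in the inhibitor libraries, against 232 and 413 in the DMSO libraries (-0.33, adjusted p = 0.748), and 0.059 without DMSO replicate 2. Gpx8, a peroxidase of the endoplasmic reticulum, was higher in both inhibitor libraries by 0.13 (log2, adjusted p = 0.748). Gpx2, the gastrointestinal form, was higher in DMSO replicate 2 than in the rest. Gpx2 had 1690.3 and 1719 normalised reads in the inhibitor libraries, against 1708 and 2156 in the DMSO libraries, a log2 fold change of -0.17 ± 0.16 (SE, n = 2 each, limma adjusted p = 0.702). Its value was -0.0024 if DMSO replicate 2 was left out and -0.33 if DMSO replicate 1 was, and 18.9% of its 50-base stretches also occur in Gpx2-ps1.

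The glutathione S-transferases, which join glutathione to electrophiles, held the gene that fell. Of 9 tested, 7 were negative and 1 passed (median -0.23). Gsto1, an omega-class enzyme that reduces rather than conjugates many of its substrates (chromosome 19, 47854970 to 47864790, plus strand, mm10), had a log2 fold change of -0.73 ± 0.14 (SE, n = 2 each, limma adjusted p = 0.0248). Both inhibitor libraries lay below both DMSO libraries, and the inhibitor libraries differed from each other more than the DMSO pair did. Leaving out SCD1 inhibitor replicate 1 ended its call (log2 fold change of -0.49, adjusted p = 0.447), as did leaving out SCD1 inhibitor replicate 2, which gave a larger difference (-0.98, adjusted p = 0.0549). The edgeR test, at -0.72, did not call it either (adjusted p = 0.0922), while the call held without either DMSO replicate and with DESeq2 (adjusted p = 0.000183). It had adjusted p from 1.29e-06 to 0.463 over the alternatives run, and its sign held in all of them.

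Among the other transferases Gstm2, of the mu class, was lower in both inhibitor libraries. Gstm2 had 2499.7 and 2294 normalised reads in the inhibitor libraries, against 3031 and 3438 in the DMSO libraries, a log2 fold change of -0.43 ± 0.14 (SE, n = 2 each, limma adjusted p = 0.163), and -0.52 (adjusted p = 0.0398, adjusted p from 0.0398 to 0.858 over the alternatives run) without DMSO replicate 1. Gstm1, the most abundant, was lower too but by little. Gstm1 had 15056 and 15602 normalised reads in the inhibitor libraries, against 16356 and 17576 in the DMSO libraries, a log2 fold change of -0.15 ± 0.10 (SE, n = 2 each, limma adjusted p = 0.587). Of the 50-base stretches of the Gstm1 transcript 23.1% occur in 5 other genes, Gstm2-ps1 and Gstm3 among them, as do 62.3% of those of Gstp1, in Gstp2 or Gstp-ps, and 9.36% of those of Gstm2, so the split of reads between such copies is uncertain. Gsta3, an alpha-class enzyme, was lower in both inhibitor libraries (-0.43, adjusted p = 0.363), as it had 1136 and 819 normalised reads in the inhibitor libraries, against 1269 and 1343 in the DMSO libraries. Gstk1, the mitochondrial kappa form, had -0.47, Gstt1, of the theta class, -0.23, Gstp1 -0.16, Gsta4, which acts on lipid aldehydes, 0.065 and the scarce Gstm5, whose exons overlap 4933431E20Rik, 0.23, with adjusted p from 0.536 to 0.909. Of 16 further transferases, peroxidases and related genes none passed (median -0.062). The closest were Ptgr1, which reduces reactive lipid carbonyls (-0.46, adjusted p = 0.257), and Gstt3 (-0.25, adjusted p = 0.580).

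Of the microsomal transferases, Mgst1 was lower in both inhibitor libraries and the others overlapped between the groups. Mgst1 had 4566 and 3000.2 normalised reads in the inhibitor libraries, against 6075 and 5696 in the DMSO libraries, 1.59-fold lower, a log2 fold change of -0.66 ± 0.17 (SE, n = 2 each, limma adjusted p = 0.0633). Mgst1, which protects membranes from lipid peroxidation, passed with DESeq2 (adjusted p = 0.0127), without DMSO replicate 1 (-0.62, 0.0456) and without DMSO replicate 2 (-0.71, 0.0384). It did not pass without SCD1 inhibitor replicate 1 (-0.97, adjusted p = 0.102) or replicate 2 (-0.36, adjusted p = 0.806), with adjusted p from 9.19e-05 to 0.806 over the alternatives run. Mgst3 had 982 and 903 normalised reads in the inhibitor libraries, against 895 and 1105 in the DMSO libraries, a log2 fold change of -0.076 ± 0.20 (SE, n = 2 each, limma adjusted p = 0.909). Mgst2 was near 124 normalised reads in each group (-0.017).

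Superoxide dismutases, which turn superoxide into hydrogen peroxide, and catalase, which removes that peroxide, had no member that passed. Catalase was lower in both inhibitor libraries. Cat had 10267 and 9177 normalised reads in the inhibitor libraries, against 12011 and 11218 in the DMSO libraries, a log2 fold change of -0.26 ± 0.11 (SE, n = 2 each, limma adjusted p = 0.311). Sod1 overlapped between the groups. Sod1 had 7541 and 7443 normalised reads in the inhibitor libraries, against 7212 and 8115 in the DMSO libraries, a log2 fold change of -0.030 ± 0.11 (SE, n = 2 each, limma adjusted p = 0.935) with a fold interval of 0.828 to 1.16, though 23.1% of the 50-base stretches of its transcript also occur in Gm8566. The mitochondrial Sod2 was 0.067 (adjusted p = 0.859). Sod3 was scarce and rested on 1 library. Sod3 had 72.6 and 71.3 normalised reads in the inhibitor libraries, against 35.1 and 305 in the DMSO libraries, a log2 fold change of -0.54 ± 0.67 (SE, n = 2 each, limma adjusted p = 0.783) that turned to 0.68 without DMSO replicate 2.

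**Figure D4:**
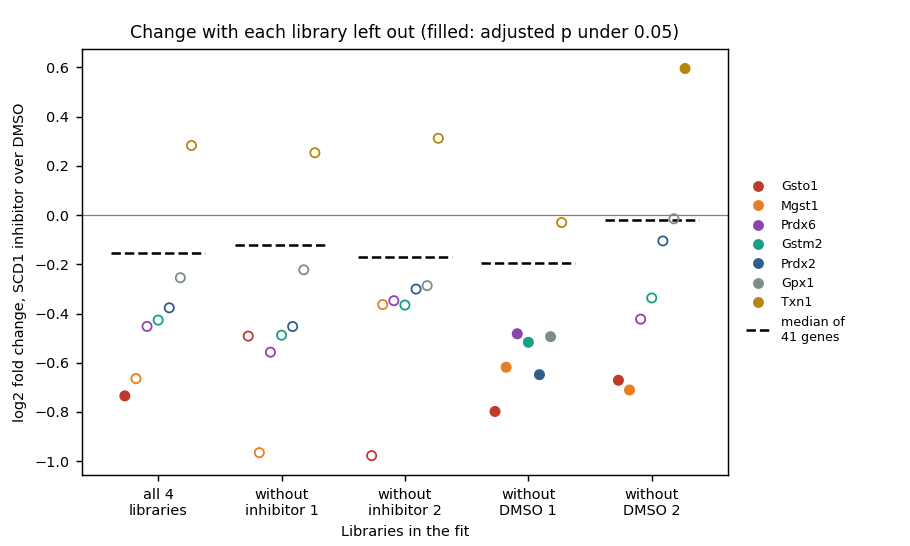
Log2 fold change, SCD1 inhibitor over DMSO, of 7 antioxidant genes with all 4 libraries and with each library left out in turn, filled where the limma adjusted p was under 0.05, and the median of the 41 genes in each fit (dashed). Gsto1 stays negative throughout (-0.98 to -0.49), while Gpx1 and the median come close to 0 without DMSO replicate 2.

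Markers of several epithelial cell types also differed between the groups. Of 12 club cell markers 5 fell, Scgb3a2, Scgb3a1, Cyp2f2, Cyp2a5 and Gabrp (median -0.50), with a summed level of 685433 and 462764 normalised reads in the inhibitor libraries, against 747603 and 657014 in the DMSO libraries. The sum was led by Scgb1a1, which had -0.23 (adjusted p = 0.729). Of 12 alveolar type 2 markers 5 fell, led by Sftpc (median -0.53), with a sum of 350512 and 289792 normalised reads in the inhibitor libraries, against 443613 and 500726 in the DMSO libraries. Of 9 goblet cell markers tested 6 fell (median -1.61). Clca1 had the most normalised reads, though Bpifb1 was higher per kilobase. The goblet sum was 19207 and 37199.5 normalised reads in the inhibitor libraries, against 106584 and 80992 in the DMSO libraries. Of 5 basal cell markers tested none passed (median -1.30), with a sum of 923 and 3084 normalised reads in the inhibitor libraries, against 5244 and 3898 in the DMSO libraries, led by Krt15, and Krt14 was at or near 0. Of 12 ciliated cell markers 1 rose, Ccdc39 (median 0.16), with a sum of 558497 and 580118 normalised reads in the inhibitor libraries, against 546507 and 564434 in the DMSO libraries, led by Sec14l3. Pan-epithelial markers, led by Cd24a, had a median of 0.15 with none passing. Of 8 alveolar type 1 markers tested 1 fell, Aqp5 (median -0.17). Cldn18 had the most normalised reads, though Hopx was the highest per kilobase.

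The 8 antioxidant genes with an unadjusted p under 0.05 did not share an order within the inhibitor pair. Gsto1, Keap1 and Gss were lower in SCD1 inhibitor replicate 1 than in replicate 2. The goblet, basal, ciliated, pan-epithelial, alveolar type 1 and endothelial sums had that order too. Mgst1, Prdx6, Gstm2, Cat and Prdx2 were lower in replicate 2 than in replicate 1. So were the club, alveolar type 2, leukocyte, neutrophil, erythroid, and fibroblast and mural sums. With 2 libraries every sum must follow either order, so a shared order cannot link a gene to a cell type. The part of these markers in the differences of the antioxidant genes was not tested. Of the remaining marker lists, no endothelial marker passed (led by Vwf, median -0.27), no fibroblast or mural marker passed (led by Acta2, median 0.72, with DMSO replicate 1 the low library in the sum), and no leukocyte marker passed (led by Laptm5, median 0.23). Of 6 neutrophil markers only Retnlg lay above the floor (0.28, adjusted p = 0.849), and of 5 erythroid markers, led by Alas2, none did.

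**Figure D5:**
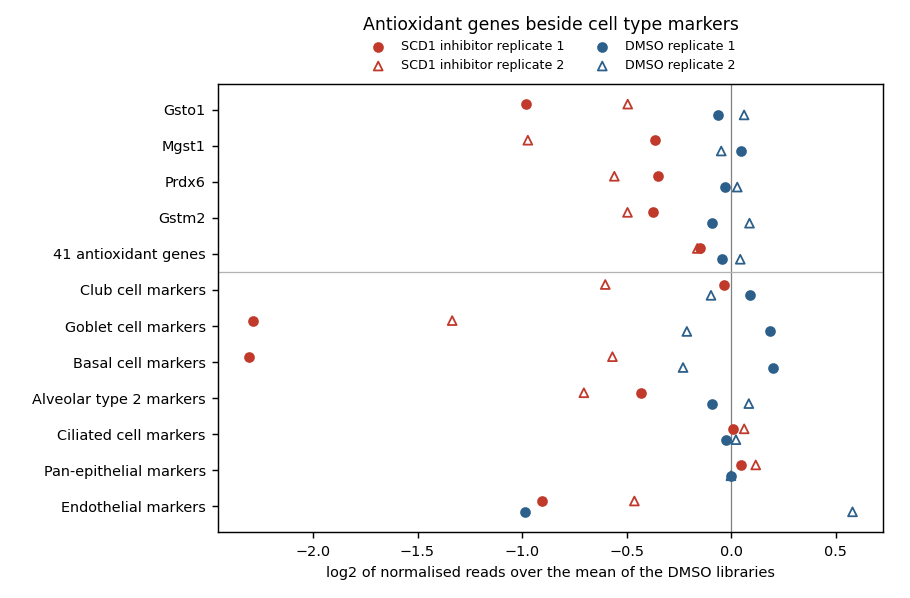
Normalised reads relative to the mean of the DMSO libraries (log2, horizontal axis) for 4 antioxidant genes, the sum of the 41 antioxidant genes and the sums of 7 marker lists, in the SCD1 inhibitor libraries (red) and the DMSO libraries (blue), replicate 1 as filled circles and replicate 2 as open triangles. The inhibitor libraries lie left of the DMSO libraries for the 4 genes and the sum of the 41. The same holds for the goblet, basal and alveolar type 2 sums. For the ciliated and pan-epithelial sums the groups lie closer together.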

How the data were processed

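RNA sequencing of sorted lung epithelial cells was deposited as 1 table of 25124 gene symbols by 4 libraries. Its signal values were, as read from the deposited numbers, counts scaled by a size factor of each library: all values of each library were whole multiples of 1 step (within 0.01 of a whole number). In DMSO replicate 2 the step lies so near 1 that its size alone does not tell it from rounding. Per the submitters' processing notes HOMER, DESeq2 and mm10 were used, with no versions or roles. Which aligner, read filters and strand setting were used is not given in the sources used here, so reads of overlapping genes and near-identical copies are uncertain. Per the labels' protocols the libraries were made from total RNA with a directional kit.

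Values were tested as log2(value + 25.8), a pseudocount equal to 1 CPM at the mean library total, which makes the folds of low genes smaller. Genes averaging that value or more were kept (13810), and limma 3.58.1 (R 4.3.3) fitted a linear model of group, without a block and with its intensity trend, over all of them. Adjustment over all genes was by Benjamini and Hochberg, with a threshold of 0.05. No label says that the libraries are of separate animals. SE, intervals and p values rest on the spread between these libraries, which limma draws towards that of other genes of similar level. Those other genes weighed as 11.2 prior degrees of freedom, so an SE is not a gene's own spread alone. Whole reads recovered from the values were used in alternatives with edgeR 4.0.16 and DESeq2 1.42.0. At the floor the counting error of 1 library is 19.7%, which covers counting error only. The fits were tested on simulated data. Coordinates, lengths and shared 50-base stretches came from GENCODE M21 (GRCm38, which is mm10), and promoter windows from RefSeq (GRCm38.p6).

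The 41 genes, the role groups, the other pathway lists, the marker lists and the tests were chosen with earlier results of these data known. Values in all libraries were given for genes that passed. In each role group they were also given for the 2 of smallest p and the gene with the most normalised reads. From each other pathway list, passing genes and the 2 of smallest p were named. The marker with the most normalised reads in each list and markers that passed were named. Further genes were named after their values were seen. Alternatives were other pseudocounts, floors, scalings and models, a replicate block, and each library left out, where a lone library is assumed to vary like the other group's pair.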

Additional observations from a re-analysis of the deposited data

How the results depend on the processing

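Of the 41 genes, 22 kept their sign in every alternative run, Gsto1, Mgst1, Prdx6 and Gstm2 among them. The number that passed was 1 under other pseudocounts, TMM or total scaling and the stricter floor, and 0 with edgeR, without the intensity trend (where 0 of all genes passed, and 1423 had an unadjusted p under 0.05) and without a floor. It was 3 with DESeq2 and 3 with the replicate block, which used the replicate number as a term, and from 0 to 6 with 1 library left out. With the replicate block Mgst1 and Prdx6 passed beside Gsto1, but the numbers are not said to pair the samples, and same-numbered libraries deviated together only weakly (r = 0.0734 across genes). Over all genes, 247 passed, against 42 with edgeR, 551 with DESeq2, 64 without a floor, 674 with the block and 5 to 795 with 1 library left out. The median of the 41 genes ran from -0.20 to -0.021 over the libraries left out, and stayed near -0.16 in the other alternatives. The cause of these differences was not tested. Fits without a library hold fewer samples, and more genes are tested without a floor.

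Values close to 0 changed sign. Nfe2l2 was -0.0017 with edgeR and -0.0011 with DESeq2, and total scaling gave 0.00084 for Gsr and 0.0024 for Prdx3. With 1 library left out, the log2 fold changes of genes whose sign changed had the ranges Nfe2l2 -0.13 to 0.14, Nqo1 -0.19 to 0.59, Hmox1 -0.15 to 0.059, Osgin1 -0.20 to 0.18, Srxn1 -0.35 to 0.033, Gclm -0.039 to 0.18, Gsr -0.070 to 0.063, Txn1 -0.030 to 0.60, Txnrd1 -0.069 to 0.053, Txnrd2 -0.57 to 0.015, Prdx3 -0.056 to 0.053, Prdx5 -0.14 to 0.13, Gpx3 -0.71 to 0.059, Gsta4 -0.037 to 0.17, Gstp1 -0.36 to 0.047, Mgst2 -0.054 to 0.020, Mgst3 -0.22 to 0.072, Sod1 -0.11 to 0.055, Sod3 -1.76 to 0.68. Of these Txn1 passed in 1 such fit and the others in none. Low counts limit Gstm5, Sod3, Mgst2, Nqo1, Hmox1 and Gpx3 the most. DESeq2 gave no adjusted p for 4820 genes, 7 of the 41 among them.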
